A study of Mus musculus with 22 samples.

Results

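The late end of an interferon-gamma response in mouse liver was examined: which messenger RNAs still differed 24 and 48 h after 1 injection, and which had moved between those times. The arrays were chosen by their labels alone. They were the interferon 24 h and 48 h arrays of both genotypes (4 arrays) and, as controls, the untreated and PBS 4 h arrays of both genotypes (4 arrays), so 8 of the 22 arrays of the series. Both genotypes lack interferon-gamma (IFNg-/-), and 1 of them also lacks the cytokine signalling inhibitor SOCS1 (SOCS1-/-IFNg-/-). All 8 liver samples were therefore from mice that could not make interferon-gamma themselves. The interferon groups received 4 µg of recombinant interferon-gamma in 100 µl by injection into the peritoneal cavity, the PBS group received 100 µl of phosphate-buffered saline and was taken at 4 h, and the untreated group was not injected. RNA from whole liver was hybridised to Affymetrix 3-prime arrays, and each value is a log2 expression summary of a probe set. Age, sex and number of mice were not in the labels, which also do not say whether a liver sample was 1 mouse or a pool.

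Interferon-gamma binds a receptor on nearly all cells and drives genes for chemokines, antigen presentation and large GTPases. In liver, hepatocytes also answer inflammation by secreting acute phase proteins, and they lower parts of their metabolic programme while doing so. SOCS1 is an induced inhibitor of the receptor's JAK kinases and helps to end the signal.

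Every condition was hybridised once in each genotype, and the series design states that there were no replicates. The 2 genotypes, the 2 times and the 2 control conditions stand in for replicates, so a p-value here weighs a difference against array-to-array spread alone, in which technical, animal and time differences are mixed. No PBS liver was taken at 24 or 48 h, so interferon, injection, handling and time of day cannot be told apart at those times. The PBS 12 h arrays stayed out of every fit, and Cxcl9 and Psmb8 were high in them. Cxcl9 read 7.76 and 8.31 there against 4.16 to 4.46 in the controls, and Psmb8 read 7.82 and 8.07 against 6.16 to 6.77. Why an array labelled PBS reads so was not tested. Adding them to the controls is given below where it changes a call. In whole liver, fewer cells of a type and less RNA per cell cannot be told apart. Values below are log2 levels, given for IFNg-/- first and SOCS1-/-IFNg-/- second, and differences are on the log2 scale ± standard error. "Called" means an adjusted p under 0.05 in limma with Benjamini-Hochberg adjustment over 8251 genes. "Separated" means that, in both genotypes, the interferon array or arrays lay beyond both controls of the same genotype in the same direction, a count without a test. Order alone separates some genes when none differs, and more of them at a single time than over both times. A separated gene is therefore not taken as a changed one.

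The deleted genes were read first. Socs1 was 6.73 and 6.68 in the untreated arrays, 6.80 and 6.57 at PBS 4 h, 6.70 and 7.02 at 24 h, and 6.68 and 6.72 at 48 h. Ifng ran from 2.18 to 2.61 over the 8 arrays, at the low end of the scale. Neither gene separates the genotypes here, and whether a probe set reads the deleted part is not stated, so these levels do not check the labels.

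The first question was what remained changed over 24 and 48 h combined. Of 8251 genes, 2 were called (0.0242%): Saa3 was higher and Hspa5 was lower. At an unadjusted p under 0.05 there were 533 genes, where 413 would be reached if no gene differed. A further, untested view is separation of all 4 interferon arrays from their own controls, which 300 genes showed upwards (3.64%) and 256 downwards (3.1%). The number that order alone would separate was not computed. The median difference over all genes was 0.00.

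Saa3, a serum amyloid A made in inflamed tissue by macrophages and other cells as well as hepatocytes, was called higher at both times. It read 5.82 and 5.98 untreated, 6.17 and 6.16 at PBS 4 h, 9.48 and 9.12 at 24 h, and 7.97 and 8.00 at 48 h. All 4 interferon arrays lay above all 4 controls, with 24 h the highest. The rise was 2.61 ± 0.31 over both times (6.11-fold; limma adjusted p = 0.0235), 3.27 ± 0.13 at 24 h (9.63-fold; 6.43e-07) and 1.96 ± 0.13 at 48 h (3.88-fold; 0.000212). From 24 to 48 h it fell by 1.31 ± 0.15 (adjusted p = 0.0122), so it was the one gene called in all 4 of these comparisons. The PBS 12 h arrays read 7.20 and 6.99, above the controls and below the 48 h arrays. With them among the controls the 24 h call was kept, but Saa3 was not called at 48 h (1.60, adjusted p = 0.305), over both times (2.26, adjusted p = 0.0717) or from 24 to 48 h (adjusted p = 0.486).

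Hspa5 encodes BiP, the main chaperone of the endoplasmic reticulum (ER). It read 10.46 and 9.93 untreated and 10.62 and 10.23 at PBS 4 h, against 9.65 and 9.44 at 24 h and 9.67 and 9.35 at 48 h. The 4 interferon arrays lay below the 4 controls, with little between the 2 times. The fall was 0.78 ± 0.09 over both times (1.72-fold; limma adjusted p = 0.0235). At 24 h Hspa5 fell by 0.77 ± 0.11 (adjusted p = 0.0181), and at 48 h the difference was -0.80 ± 0.11 but not called (adjusted p = 0.065). The PBS 12 h arrays read 10.10 and 10.30. With them among the controls Hspa5 was still called over both times (adjusted p = 0.0383) but not at 24 h (-0.73, adjusted p = 0.0749).

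These 2 calls over both times depended on single arrays and on scaling. Neither was made without the IFNg-/- untreated array, without the IFNg-/- PBS 4 h array, with untreated arrays alone as controls, or after quantile normalization (0 genes each), although Saa3 stayed between 2.26 and 2.95 and Hspa5 between -0.90 and -0.67 over 19 alternatives, with Saa3 called in 8 of them and Hspa5 in 10. The count was 1 without the IFNg-/- 24 h, the IFNg-/- 48 h or the SOCS1-/-IFNg-/- PBS 4 h array (in the last case neither Saa3 nor Hspa5), and 5 without the SOCS1-/-IFNg-/- 48 h array.

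The promoters of both genes are shown because the results turn on them: the 250 bases before the transcript start from RefSeq (GRCm38.p6), 5′ to 3′ along the gene. The Saa3 window is chr7:46715677-46715926, minus strand, and lies inside the annotated span of the gene, chr7:46711998-46719615, so it belongs to one of several starts. Its capitals mark a match to interferon response element letters (GAAANNGAA, or TTCNNTTTC on the other strand) at positions -125 to -117 from the start. The Hspa5 window is chr2:34771840-34772089, plus strand, just before the gene at chr2:34772090-34776529. Its capitals mark both ends of an ER stress element (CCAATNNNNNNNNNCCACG) at -65 to -47.
Saa3: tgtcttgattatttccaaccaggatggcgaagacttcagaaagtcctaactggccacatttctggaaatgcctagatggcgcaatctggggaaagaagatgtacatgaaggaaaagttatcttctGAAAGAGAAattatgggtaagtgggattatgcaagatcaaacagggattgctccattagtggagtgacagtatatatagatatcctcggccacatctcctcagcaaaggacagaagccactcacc
Hspa5: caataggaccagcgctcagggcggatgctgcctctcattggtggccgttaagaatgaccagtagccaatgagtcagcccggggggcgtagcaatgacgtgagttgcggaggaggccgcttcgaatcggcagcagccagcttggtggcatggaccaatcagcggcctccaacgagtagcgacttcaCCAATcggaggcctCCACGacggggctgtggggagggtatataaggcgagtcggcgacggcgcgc
The interferon response element letters occurred in 7.13% of 32851 promoter windows of that length, searched on both strands. The ER stress element letters, chosen for the search after the values had been seen, occurred in 37 windows (0.113%). The Saa3 window held no match to the letters of a gamma-activated site (TTCNNNGAA, in 7.02% of windows), of a C/EBP site (TTNNGNAAT, 10.2%) or of an NF-kB site (GGGNNTTTC, 3.72%). A match is only a description of letters in the window.

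Other protein-folding genes were also lower, without being called. Of 26 measured heat shock and ER stress genes, 1 was called lower and 8 were separated downwards over both times, with 0 separated upwards, and the median of the list was -0.29 against 0.00 for all genes. Downward separation held for 3.1% of all genes. The cytosolic members were Hspa1a and Hspa1b (inducible HSP70), Hspa8 (constitutive HSP70), Hsph1 (HSP110) and Dnaja1 (an HSP40 co-chaperone). The ER members were Hspa5, Herpud1 (ER-associated degradation) and Manf (a secreted ER stress protein). Apart from Hspa5, their differences were not called.

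Hspa1b read 8.16 and 6.26 untreated, 6.55 and 6.49 at PBS 4 h, 5.36 and 5.56 at 24 h, and 5.42 and 4.99 at 48 h. Its 4 interferon arrays lay below all controls, but the controls themselves spread widely, and the difference of -1.53 ± 0.31 was not called (limma adjusted p = 0.25). Hspa8 read 9.13 and 8.27 untreated and 8.48 and 8.87 at PBS 4 h, against 7.70 and 7.64 at 24 h and 7.93 and 7.34 at 48 h. The groups did not overlap, at -1.04 ± 0.16 (adjusted p = 0.11). Herpud1 read 9.37 and 8.48 untreated and 9.82 and 8.96 at PBS 4 h, against 8.34 and 8.09 at 24 h and 8.48 and 8.04 at 48 h. Here the IFNg-/- 48 h array met the SOCS1-/-IFNg-/- untreated array, and within each genotype the arrays stayed apart (-0.92 ± 0.15, adjusted p = 0.11). Manf was -0.65 ± 0.11 (adjusted p = 0.161) and Dnaja1 -0.56 ± 0.11 (adjusted p = 0.265).

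The list was then read within each genotype. In IFNg-/- livers, 22 of the 26 genes were below their own controls, with a median of -0.40, whereas in SOCS1-/-IFNg-/- livers 13 of 26 were, with a median of -0.06. Over all genes, 55.3% were below their own controls in IFNg-/- and 44.9% in SOCS1-/-IFNg-/-. The difference of the responses had a median of 0.30 over the list, with 0 genes called. The mean of the list was 7.78 and 7.69 in the IFNg-/- controls and 7.33 and 7.51 in the SOCS1-/-IFNg-/- controls, and the interferon arrays held 7.25, 7.19, 7.34 and 7.16. The SOCS1-/-IFNg-/- 24 h array was thus level with its own untreated control. The PBS 12 h arrays, at 7.33 and 7.40, were also below the IFNg-/- controls. A 3-prime to 5-prime difference of the Actb control probe sets, a sign of RNA quality, was 1.32 and 1.31 in the untreated arrays. It was 0.83 and 0.66 at PBS 4 h, so the 2 kinds of control differed. It was 1.13 and 0.47 at 24 h and 1.33 and 1.56 at 48 h. Both 48 h arrays were thus above the other arrays of the fit, the IFNg-/- one only just. For Gapdh it was 0.42 to 0.85 in the controls, 0.68 and 0.49 at 24 h, and 0.50 and 0.83 at 48 h, which overlapped. The part of RNA quality in these values or in the change from 24 to 48 h was not tested.

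**Figure D1:**
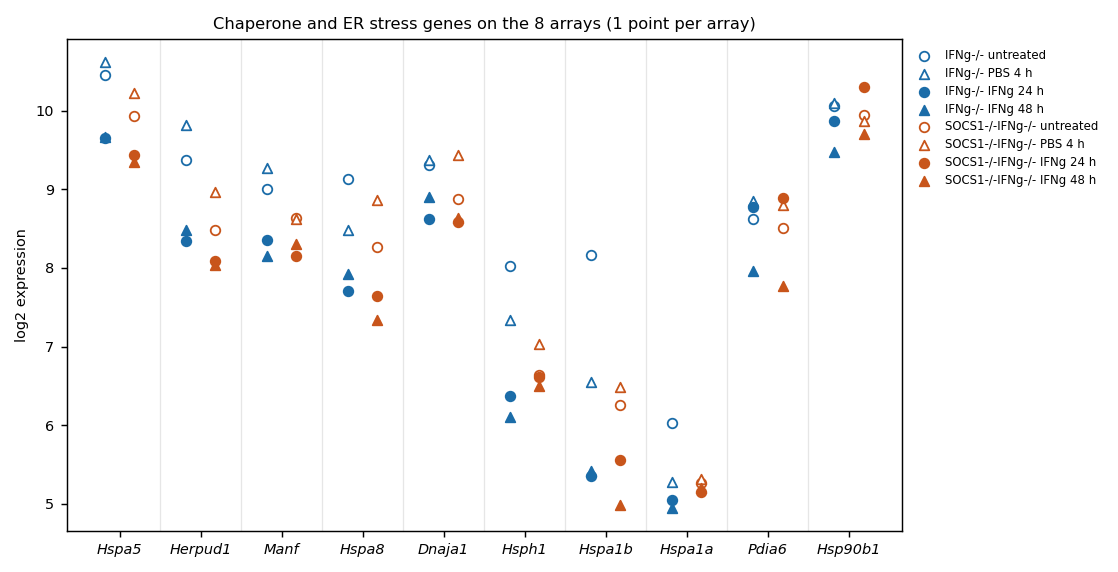
Log2 values of 10 heat shock and ER stress genes on the 8 arrays, with IFNg-/- and SOCS1-/-IFNg-/- in different colours. Open symbols are controls (circle untreated, triangle PBS 4 h) and filled symbols are interferon arrays (circle 24 h, triangle 48 h). For Hspa5 and Hspa8 the filled symbols lie below all open ones, while Pdia6 is low at 48 h only.

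The other genes separated over both times were not called and are given as values. Cd74, the MHC class II invariant chain, was closest at 1.04 ± 0.15 (limma adjusted p = 0.064), with Apbb1ip, an adaptor of integrin activation in leukocytes, at 0.62 ± 0.09 (adjusted p = 0.064). Orm2, an acute phase glycoprotein, was at 1.68 ± 0.31 (adjusted p = 0.202). Apoa4, an apolipoprotein, was at 0.73, and Hbb-b2, a globin chain of red cells, at 0.80. The mean of 11 erythroid markers was 5.99 to 6.09 in the controls and 6.09 to 6.23 in the interferon arrays, where the ranges met, and its part in the Hbb-b2 value was not tested. On the low side, Hnf4a, a master transcription factor of hepatocytes, was at -0.58, Car3, a carbonic anhydrase, at -0.54, and Cmah, which modifies sialic acid, at -0.53.

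At 24 h, genes for a chemokine, the immunoproteasome, MHC class II and acute phase proteins were still raised. Of 8251 genes, 25 were called (0.303%), 21 of them higher (0.255%) and 4 lower (0.0485%), and 641 had an unadjusted p under 0.05. By the untested separation, 1101 genes were higher (13.3%) and 976 lower (11.8%). The count rested in part on the SOCS1-/-IFNg-/- 24 h array, since without it 5 genes were called, all of them among the 25. It was 47 with the PBS 4 h arrays as the only controls. With the PBS 12 h arrays added to the controls, 10 of the 25 calls were kept: Saa3, Lcn2, Orm2, Serpina3n, Saa-ps, Hp, Irf7, Lsr, Car3 and Jund. The other 15 were lost, among them Cxcl9 and all 4 calls of the MHC lists.

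Cxcl9, the chemokine that draws CXCR3-bearing T cells, showed the largest difference. It read 4.16 and 4.31 untreated, 4.46 and 4.33 at PBS 4 h, 9.38 and 10.33 at 24 h, and 5.54 and 5.13 at 48 h. The 24 h arrays were far above the controls and the 48 h arrays a little above them. The 24 h rise was 5.55 ± 0.21 (46.7-fold; limma adjusted p = 6.43e-07), and the 48 h difference of 1.03 ± 0.21 was not called (adjusted p = 0.289). From 24 to 48 h it fell by 4.52 ± 0.25 (23-fold; adjusted p = 3.3e-05). At 12 h it had read 10.99 and 11.48 and at 16 h 10.54 and 11.41, so 24 h was below both. The PBS 12 h arrays, at 7.76 and 8.31, lay above the 48 h interferon arrays. With them among the controls the 24 h difference was 4.31 ± 1.08 and was not called (adjusted p = 0.269), nor was the change from 24 to 48 h (adjusted p = 0.475). Of the other 22 chemokine-list genes measured, 0 were called at 24 h, among them Cxcl10 at -0.15.

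The Cxcl9 promoter window, chr5:92328080-92328329 on the minus strand (GRCm38.p6, RefSeq), is shown for comparison with that of Saa3 and was chosen after the values had been seen. Its capitals mark, in order, an interferon response element match at -175 to -167, an NF-kB match (GAAANNCCC on this strand) at -154 to -146, and a C/EBP match (ATTNCNNAA on this strand) at -39 to -31.
Cxcl9: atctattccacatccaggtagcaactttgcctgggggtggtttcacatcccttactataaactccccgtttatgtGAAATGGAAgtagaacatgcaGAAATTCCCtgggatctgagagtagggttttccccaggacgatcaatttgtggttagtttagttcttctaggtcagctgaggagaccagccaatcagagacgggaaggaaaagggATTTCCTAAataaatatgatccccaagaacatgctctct
Both windows thus hold interferon response element letters. The Cxcl9 window also holds matches to the NF-kB and C/EBP letters searched, which the Saa3 window does not. Looser forms of these sites were not searched.

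Antigen presentation genes were next. The MHC class I list had 3 of 18 measured genes called higher at 24 h and 12 separated upwards, with a median of 0.23 against 0.006 for all genes. Separation upwards held for 13.3% of all genes. Psmb8, an immunoproteasome subunit, read 6.16 and 6.56 untreated, 6.32 and 6.77 at PBS 4 h, 8.07 and 8.32 at 24 h, and 7.08 and 6.87 at 48 h. The 24 h arrays were the highest and the 48 h arrays still lay above all controls. The rise at 24 h was 1.74 ± 0.14 (3.35-fold; limma adjusted p = 0.000282), and at 48 h the difference was 0.53 ± 0.14 (adjusted p = 0.437). With the PBS 12 h arrays among the controls Psmb8 was not called at 24 h (1.25 ± 0.44, adjusted p = 0.415) or from 24 to 48 h (adjusted p = 0.638). Psmb9, its neighbour in the MHC and also an immunoproteasome subunit, read 6.88 and 7.23 at 24 h against 6.41 to 6.61 in the controls, and 6.31 and 6.48 at 48 h. It rose by 0.57 ± 0.09 at 24 h (adjusted p = 0.028). Psme1, a proteasome activator subunit, rose by 0.92 ± 0.12 (adjusted p = 0.00686), though its other, dimmer probe set gave -0.06. With the PBS 12 h arrays added, Psmb9 at 24 h was 0.17 (adjusted p = 0.925) and Psme1 0.74 (adjusted p = 0.243). The peptide loading genes were not called: Tapbp (tapasin) was at 0.61 ± 0.12 (adjusted p = 0.083) and Tap1, a peptide transporter, at 0.21. The heavy chain genes H2-K1 and H2-D1, at 0.31 and 0.25, were likewise not called, and B2m was at -0.05.

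The MHC class II list had 1 of 15 called, 10 separated upwards and 1 downwards at 24 h (median 0.26). Of all genes, 13.3% were separated upwards and 11.8% downwards. Cd74 read 7.01 and 7.82 untreated, 7.03 and 7.66 at PBS 4 h, 8.01 and 9.31 at 24 h, and 7.74 and 8.59 at 48 h. The SOCS1-/-IFNg-/- arrays were higher throughout, and within each genotype both interferon arrays were above both controls. It rose by 1.29 ± 0.12 at 24 h (2.44-fold; limma adjusted p = 0.00166), and at 48 h it was at 0.79 ± 0.12, not called (adjusted p = 0.109). The 24 h call was lost with the PBS 12 h arrays added (0.97, adjusted p = 0.344) and without the genotype term (adjusted p = 0.349). H2-Aa, a class II chain, was at 0.84 ± 0.15 at 24 h (adjusted p = 0.0543). Ctss, the protease that cleaves the invariant chain, was at 0.73 ± 0.13 (adjusted p = 0.065).

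Macrophage markers were read in the same samples. Mpeg1, a pore-forming protein of macrophages, read 7.11 and 7.42 untreated, 7.15 and 7.14 at PBS 4 h, 8.05 and 8.16 at 24 h, and 7.27 and 7.45 at 48 h. It was high at 24 h in both genotypes and back near the controls at 48 h, with a 24 h rise of 0.90 ± 0.10 (limma adjusted p = 0.00324). It was 0.64 and not called (adjusted p = 0.425) with the PBS 12 h arrays added. Of 13 measured Kupffer cell and macrophage markers, Mpeg1 was called at 24 h, 6 were separated upwards and 1, Lyz2, downwards. Over all genes, 13.3% were separated upwards and 11.8% downwards. The list mean was 6.583 to 6.838 in the controls and 6.85 to 6.986 in the 24 and 48 h arrays, so the ranges nearly met. Among the defining markers, Clec4f of Kupffer cells was at -0.35 and Adgre1 (F4/80) at 0.14 at 24 h, neither called. The part of macrophage number in the MHC class II and Mpeg1 values was not tested.

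Acute phase proteins held the largest group of calls at 24 h, 6 of 29 measured, with 15 separated upwards (13.3% of all genes were) and a median of 0.29. Lcn2 (lipocalin 2, which binds bacterial iron carriers) read 4.13 and 4.62 untreated, 4.47 and 5.91 at PBS 4 h, 9.06 and 10.20 at 24 h, and 5.62 and 5.24 at 48 h. The 24 h arrays stood far above the rest, and the 48 h arrays lay within the range of the controls. The rise was 4.85 ± 0.36 (28.8-fold; limma adjusted p = 0.000199), and its other probe set gave 0.12. Orm2 read 7.13 and 7.66 untreated, 7.92 and 8.28 at PBS 4 h, 9.82 and 10.11 at 24 h, and 9.12 and 8.68 at 48 h. It rose by 2.22 ± 0.25 at 24 h (adjusted p = 0.00359) and was still above all controls at 48 h (1.15 ± 0.25, adjusted p = 0.321). Serpina3n, a protease inhibitor, read 11.62 and 12.06 at 24 h against 10.08 to 10.81 in the controls, and 10.20 and 10.26 at 48 h. It rose by 1.50 ± 0.18 (2.83-fold; adjusted p = 0.00537). Hp, the haemoglobin-binding haptoglobin, rose by 0.78 ± 0.10 (adjusted p = 0.00686).

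Saa2, a circulating serum amyloid A, was less even. It read 7.75 and 7.62 untreated, 8.54 and 10.06 at PBS 4 h, 11.79 and 12.15 at 24 h, and 9.96 and 8.76 at 48 h. The PBS 4 h array of SOCS1-/-IFNg-/- was as high as the 48 h arrays, and the 24 h rise of 3.48 ± 0.58 (11.2-fold; limma adjusted p = 0.0436) was called in 8 of 19 alternatives. Its adjusted p was 0.0538 with the PBS 12 h arrays added. The pseudogene Saa-ps, in the same cluster on chromosome 7, rose by 1.41 ± 0.16 (adjusted p = 0.00324). Serum amyloid A genes are close copies, so a probe set may read more than 1 of them. The acute phase list also stood higher at PBS 4 h than untreated: 24 of 29 genes were above, with a median of 0.28. The controls are therefore not at one level for this list.

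Other genes called higher at 24 h were Irf7, a transcription factor of the interferon system (0.96 ± 0.11, limma adjusted p = 0.00324), the interferon-induced transcript AW112010 (0.96 ± 0.11, adjusted p = 0.00324), the surface protein gene Ly6e (0.90 ± 0.13, adjusted p = 0.0225) and Ifitm3, which blocks virus entry (0.85 ± 0.14, adjusted p = 0.0396). A second probe set gave 0.35 for Irf7 and -0.08 for Ly6e. With the PBS 12 h arrays added, AW112010 (0.57, adjusted p = 0.671), Ly6e (0.75, adjusted p = 0.2) and Ifitm3 (0.68, adjusted p = 0.312) were not called. The remaining calls, Cd52, Tmem176a, Lsr and Il18bp, lay between 0.58 and 0.66, and of these Lsr alone was kept with those arrays added. The first of these encodes a leukocyte surface peptide and the last a decoy for interleukin 18.

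The interferon-inducible GTPases, which attack pathogen-containing vacuoles, were not called at 24 h: 0 of 8, with 3 separated upwards, 1 downwards and a median of 0.17. The shares separated over all genes were 13.3% upwards and 11.8% downwards. Gbp2 read 4.27 and 4.66 untreated, 4.53 and 4.27 at PBS 4 h, 5.44 and 7.64 at 24 h, and 4.57 and 4.54 at 48 h. It was high at 24 h in both genotypes, and much more so in SOCS1-/-IFNg-/-, which left the difference at 2.10 ± 0.38 with an adjusted p of 0.065. Igtp was at 0.40 and Irf1, an early interferon-induced transcription factor, at 0.00. Of 22 antiviral genes 1 was called (median 0.10). Saa1 was not analysed here.

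The 4 genes lower at 24 h were Hspa5, Car3, Sec23b and Jund. Car3 read 11.42 and 11.28 untreated, 11.37 and 11.44 at PBS 4 h, 10.77 and 10.57 at 24 h, and 11.18 and 10.82 at 48 h. Both 24 h arrays were below all controls, and Car3 fell by 0.71 ± 0.10 (limma adjusted p = 0.0163). Jund, an AP-1 subunit, fell by 0.65 ± 0.11 (adjusted p = 0.0396), and was called in 6 of 19 alternatives. Sec23b, a coat protein of ER export vesicles, fell by 0.65 ± 0.11 (adjusted p = 0.0462), was called in 5 of 19, and its other probe set gave -0.01. Its adjusted p was 0.14 with the PBS 12 h arrays added.

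**Figure D2:**
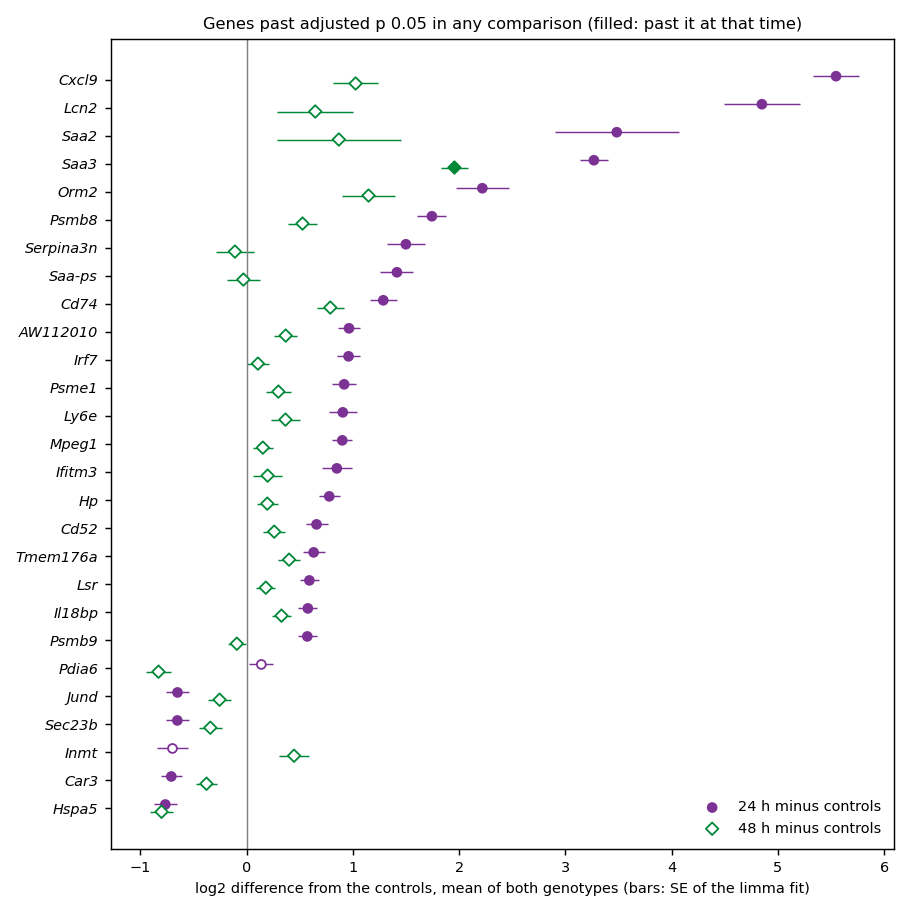
Differences from the controls at 24 h (circles) and at 48 h (diamonds) on the log2 scale, with bars of 1 standard error, for the 27 genes called in any comparison. Filled symbols passed the limma threshold. Most genes have a filled symbol at 24 h, and Saa3 alone has one at 48 h.

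At 48 h Saa3 was the only call (1 of 8251, 0.0121%), with 513 genes at an unadjusted p under 0.05. Separation upwards held for 884 genes (10.7%) and downwards for 914 (11.1%). The count was 6 without the SOCS1-/-IFNg-/- PBS 4 h array, 4 without the SOCS1-/-IFNg-/- untreated array, 3 without either 24 h array and 2 without the IFNg-/- untreated array. It was 26 with PBS 4 h arrays as the only controls and 6 with untreated arrays only. With the spread taken from all 22 arrays it was 0. Saa3 was lost there, and also with the PBS 12 h arrays added, when 1 other gene was called.

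List medians that had been above the controls at 24 h were lower at 48 h. The medians at 48 h were 0.03 for MHC class I, 0.10 for MHC class II, 0.07 for acute phase proteins, -0.004 for the GTPases and -0.04 for antiviral genes, against -0.006 for all genes, and Saa3 was the only member of these lists called. Over all genes, 10.7% were separated upwards and 11.1% downwards. Of the 29 acute phase genes, 5 were separated upwards and 5 downwards. Of the 18 MHC class I genes, 5 were separated upwards (H2-K1, H2-D1, B2m, Psmb8 and Psme1) and 2 downwards (Psmb9 and Calr). Of the 15 MHC class II genes, 13 were above the controls, 5 were separated upwards (H2-Aa, H2-Eb1, Cd74, Ctss and Lgmn) and 0 downwards. Macrophage markers had a median of 0.15, with 5 of 13 separated upwards and 2 downwards (Lyz2 and Fcgr1).

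The uncalled genes with the largest separation upwards at 48 h, after Saa3, were of mixed kinds. Among them were Orm2 (1.15), Cxcl9 (1.03) and Cd74 (0.79), whose levels are given above, and Hbb-b2 (0.86). The others follow. Gsta2, a glutathione transferase that detoxifies electrophiles, read 8.19 and 8.01 untreated, 8.38 and 8.37 at PBS 4 h, 8.51 and 7.98 at 24 h, and 9.86 and 8.97 at 48 h. Only the 48 h arrays stood out, at 1.17 ± 0.17 (limma adjusted p = 0.075). Abcc3, a basolateral exporter of bile acids and conjugates, read 9.33 and 9.19 untreated, 8.91 and 8.95 at PBS 4 h, 9.14 and 9.32 at 24 h, and 9.82 and 9.78 at 48 h. Its 48 h arrays were above all others, at 0.71 ± 0.13 (adjusted p = 0.2). Ces1g, a liver carboxylesterase, was at 0.96 ± 0.20 (adjusted p = 0.289), Cry1, a clock repressor, at 0.82, and Dio1, which activates thyroid hormone, at 0.71.

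The clock gene Nr1d1 (REV-ERB alpha) is given because the livers could differ in time of day. It read 5.68 and 6.48 untreated, 7.58 and 7.57 at PBS 4 h, 5.98 and 6.15 at 24 h, and 6.05 and 5.66 at 48 h. The PBS 4 h arrays stood above the rest, so the 2 kinds of control differed in this gene and the interferon arrays were level with the untreated ones. Dbp, a clock output factor, was at -0.26 at 24 h and -0.29 at 48 h. Whether the hour of sampling bears on Cry1 or on the other values was not tested.

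Downwards at 48 h, the heat shock and ER stress list had more separated genes than at 24 h. Of its 26 genes, 14 were separated downwards and 0 upwards (median -0.33), where 10 had been downwards at 24 h and Hspb1 upwards (median -0.10), and 0 were called. Downward separation held for 11.1% of all genes at 48 h and 11.8% at 24 h. The genes separated at 48 h and not over both times together were Hsp90b1, Hspb1, Dnajc3, Bag3, Atf4 and Pdia6. Pdia6, a disulfide isomerase of the ER, read 8.62 and 8.51 untreated, 8.85 and 8.80 at PBS 4 h, 8.78 and 8.89 at 24 h, and 7.96 and 7.77 at 48 h. It was at control level at 24 h and lowest at 48 h, at -0.83 ± 0.11 (limma adjusted p = 0.065). Its other probe sets gave -0.56 and -0.91. Dnajc3, an inhibitor of ER stress kinases, was at -0.64 ± 0.21. Outside the list, Psma4, a proteasome subunit, was at -0.76, Lpin1, a phosphatidate phosphatase, at -1.01, and Il1r1, the interleukin 1 receptor, at -0.80, none called.

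The Pdia6 window, chr12:17266339-17266588 on the plus strand (GRCm38.p6, RefSeq), is shown beside that of Hspa5 because both hold the ER stress element letters and the first difference from the controls came at different times. It was chosen after the values had been seen, and its capitals mark the element's ends at -98 to -80.
Pdia6: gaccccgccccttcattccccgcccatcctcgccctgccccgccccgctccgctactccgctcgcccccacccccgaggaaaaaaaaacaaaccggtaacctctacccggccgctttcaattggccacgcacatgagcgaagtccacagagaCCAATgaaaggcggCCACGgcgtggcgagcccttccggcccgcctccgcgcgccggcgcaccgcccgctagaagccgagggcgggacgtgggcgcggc
Of the 26 measured list genes, 22 had a promoter entry and 5 held the letters on either strand: Hspa5, Pdia6, Creld2, Dnajc3 and Hsp90b1. Hspa5 was separated at both times, and its 48 h minus 24 h difference was -0.04. Pdia6, Dnajc3 and Hsp90b1 were separated downwards at 48 h only, with 48 h minus 24 h differences of -0.97, -0.64 and -0.50, of which the first was called. Creld2 was separated at neither time: its levels, given with the genotype comparison below, were lower after interferon in IFNg-/- and higher in SOCS1-/-IFNg-/-.

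**Figure D3:**
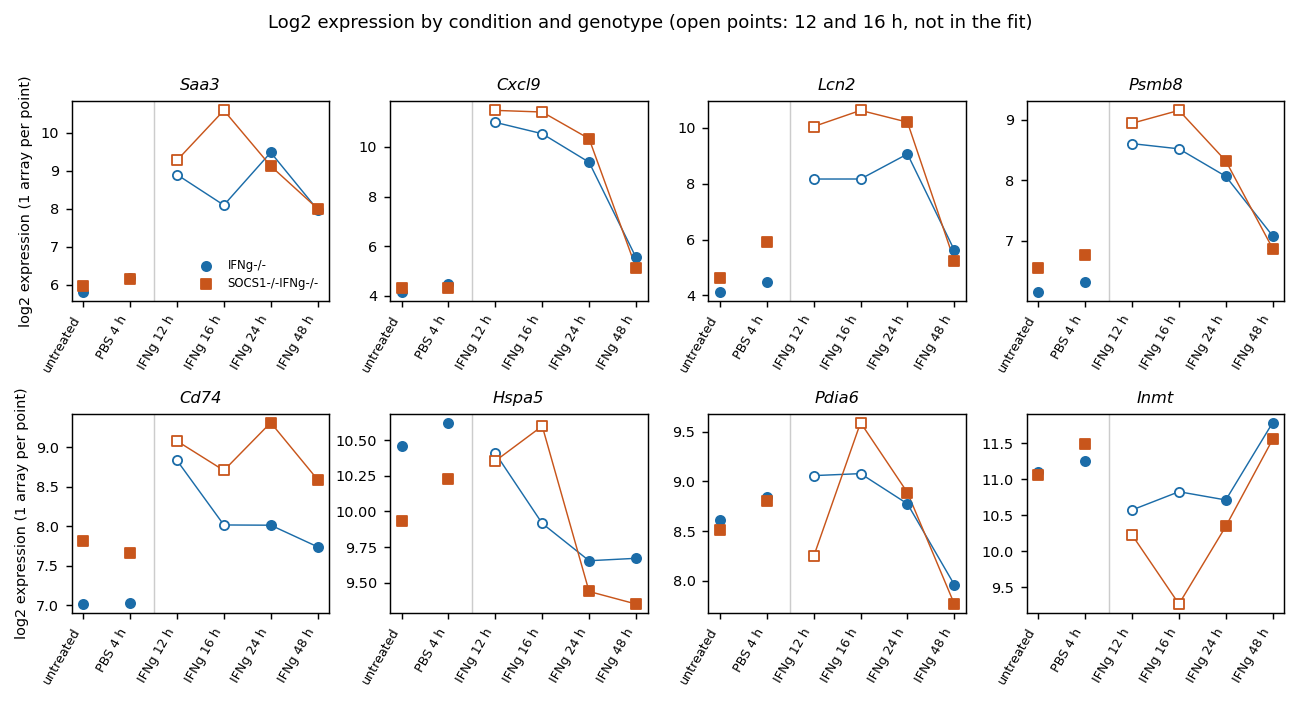
Log2 values of 8 genes by condition in IFNg-/- (circles) and SOCS1-/-IFNg-/- (squares). Filled symbols are the arrays of the fit, and open symbols at 12 and 16 h are given for context. Cxcl9, Lcn2 and Psmb8 come down between 24 and 48 h, Saa3 stays above its controls, Hspa5 is low at both times, Pdia6 is low at 48 h only, and Inmt is higher at 48 h than at 24 h.

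The change from 24 to 48 h was then tested directly. Of 8251 genes, 11 were called (0.133%), 10 lower and 1 higher, and 607 had an unadjusted p under 0.05. The 48 h array was below the 24 h array in both genotypes for 2706 genes (32.8%) and above it for 2263 (27.4%), and the median over all genes was -0.01. Order alone also places many genes below, or above, in both genotypes. The count was 2 without either SOCS1-/-IFNg-/- interferon array, 5 without the IFNg-/- 24 h array and 4 without the IFNg-/- 48 h array. Both controls enter this comparison only through the estimate of spread.

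The genes that fell were mostly those high at 24 h. Both comparisons use the same 24 h arrays, with opposite sign, so this overlap is partly built in. Beside Cxcl9 and Saa3, Lcn2 fell by 4.2 ± 0.41 (18.4-fold; limma adjusted p = 0.00461). Serpina3n fell by 1.61 ± 0.21 (adjusted p = 0.02), Saa-ps by 1.45 ± 0.18 (adjusted p = 0.02) and Psmb8 by 1.22 ± 0.16 (2.33-fold; adjusted p = 0.02). Irf7 fell by 0.85 ± 0.12 (adjusted p = 0.0323), Mpeg1 by 0.75 ± 0.11 (adjusted p = 0.0379) and Psmb9 by 0.66 ± 0.10 (adjusted p = 0.0436). Pdia6 fell by 0.97 ± 0.13 (adjusted p = 0.0254) from control level, and its other probe sets gave -0.91 and -1.05. Cd74 was at -0.50 ± 0.14 and was not called (adjusted p = 0.427). Over the 19 alternatives Psmb9 was called in 6, Mpeg1 in 8, Irf7 in 10, Saa-ps in 12, Saa3, Psmb8 and Pdia6 in 13 each, Serpina3n in 14, Lcn2 in 17 and Cxcl9 in 18. With the PBS 12 h arrays added, 4 of the 11 calls were kept: Lcn2, Serpina3n, Saa-ps and Pdia6.

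Of the acute phase list, 3 of 29 were called lower and 18 were lower at 48 h in both genotypes (median -0.33). MHC class I had 2 of 18 called and 9 lower in both genotypes (median -0.21). MHC class II had 0 of 15 called and 10 lower in both genotypes (median -0.19), and 10 of 22 antiviral genes and 6 of 8 GTPases were lower in both genotypes with 0 called. Over all genes, 32.8% were lower at 48 h in both genotypes.

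Inmt, an indolethylamine methyltransferase abundant in liver, was the single call upwards. It read 11.10 and 11.06 untreated, 11.26 and 11.49 at PBS 4 h, 10.71 and 10.35 at 24 h, and 11.79 and 11.56 at 48 h. The 24 h arrays were below all controls and the 48 h arrays above them. It rose by 1.14 ± 0.16 between the times (2.21-fold; limma adjusted p = 0.0323), while the differences from the controls, -0.70 ± 0.14 at 24 h and 0.45 ± 0.14 at 48 h, were not called. It was called in 10 of the 19 alternatives, and not with the PBS 12 h arrays added (adjusted p = 0.154).

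**Figure D4:**
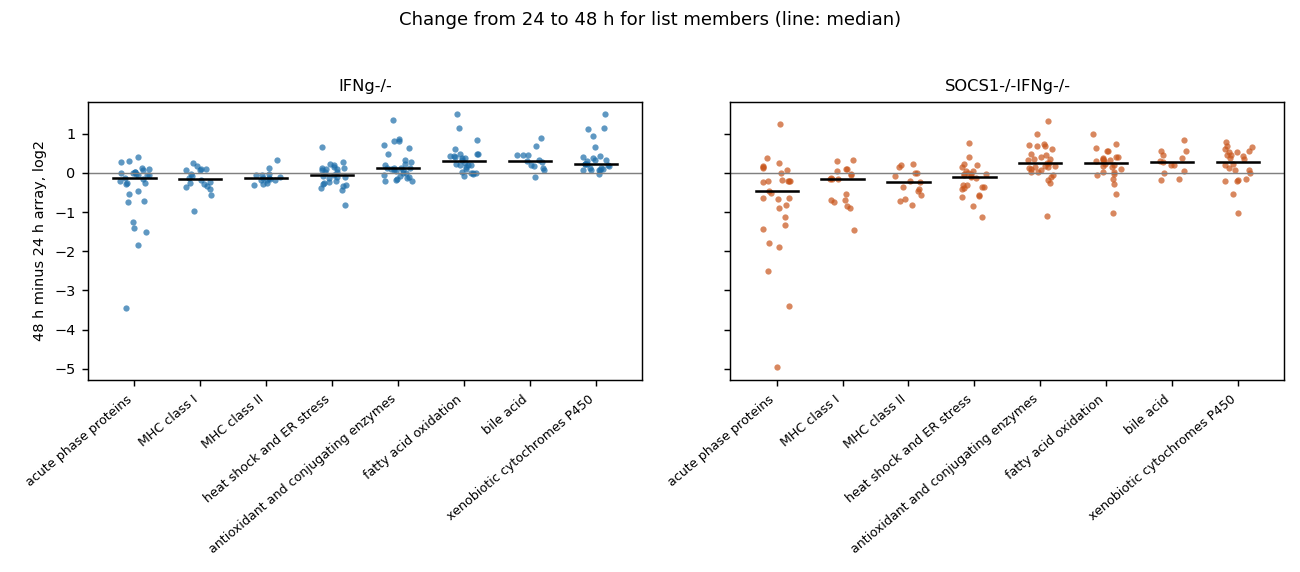
The 48 h minus 24 h difference on the log2 scale for each measured gene of 8 lists, by genotype, with a line at each median. The inflammatory lists have medians below 0, and the hepatic metabolic lists have medians above 0.

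Several hepatic metabolic lists stood higher at 48 h than at 24 h, with 0 members called in any of them, so they are described by their counts. Of 24 xenobiotic cytochromes P450, 23 were above (16 in both genotypes) with a median of 0.28. Of 26 fatty acid oxidation genes, 23 were above (19 in both genotypes), with a median of 0.24. Of 13 bile acid genes, 12 were above (11 in both genotypes), with a median of 0.33. Of 29 antioxidant and conjugating enzymes, 21 were above (18 in both genotypes), with a median of 0.23. The first 2 lists share Cyp4a10 and Cyp4a14. Over all genes, 45.5% were above (27.4% in both genotypes) and the median was -0.01.

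Members that were higher at 48 h in both genotypes are given as examples, not as the largest shifts. Ces1d, a carboxylesterase, read 10.04 and 9.36 at 24 h and 10.86 and 10.69 at 48 h, with controls from 9.95 to 10.43. Its shift of 1.08 ± 0.17 was not called (limma adjusted p = 0.06). Acaa1b, a peroxisomal thiolase, read 10.49 and 10.06 at 24 h and 11.09 and 11.06 at 48 h, with controls from 10.39 to 10.96 (0.80 ± 0.13, adjusted p = 0.055). Among the cytochromes, Cyp1a2, which oxidises caffeine and many drugs, read 10.53 and 10.07 at 24 h and 10.92 and 10.86 at 48 h, with controls from 10.79 to 10.96. It was thus low at 24 h and level with the controls at 48 h (0.59 ± 0.13). Cyp2c70, which makes muricholic bile acids in mice, was at 0.65 ± 0.16, and Ppara, the receptor that governs fatty acid oxidation, at 0.59 ± 0.16. In bile acid metabolism, Slc27a5, a bile acid ligase, was at 0.50 ± 0.13 and Baat, which conjugates bile acids, at 0.38 ± 0.10. Apart from Ces1d, the genes named here were separated downwards from the controls at 24 h. The same 24 h arrays enter both comparisons, so their rise to 48 h is partly built in.

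Set against the controls, the P450 list went from a median of -0.12 at 24 h to 0.07 at 48 h, and the bile acid list from -0.15 to 0.16. Fatty acid oxidation went from -0.02 to 0.14 and the antioxidant list from -0.001 to 0.15. These list medians share the control arrays between the 2 times. With PBS 4 h arrays as the only controls, an alternative added after seeing the data, the bile acid median at 48 h was 0.10 and the antioxidant median at 24 h was -0.07. At 48 h, 11 of the 29 antioxidant genes were separated upwards (37.9%), against 10.7% of all genes, with 0 called.

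**Figure D5:**
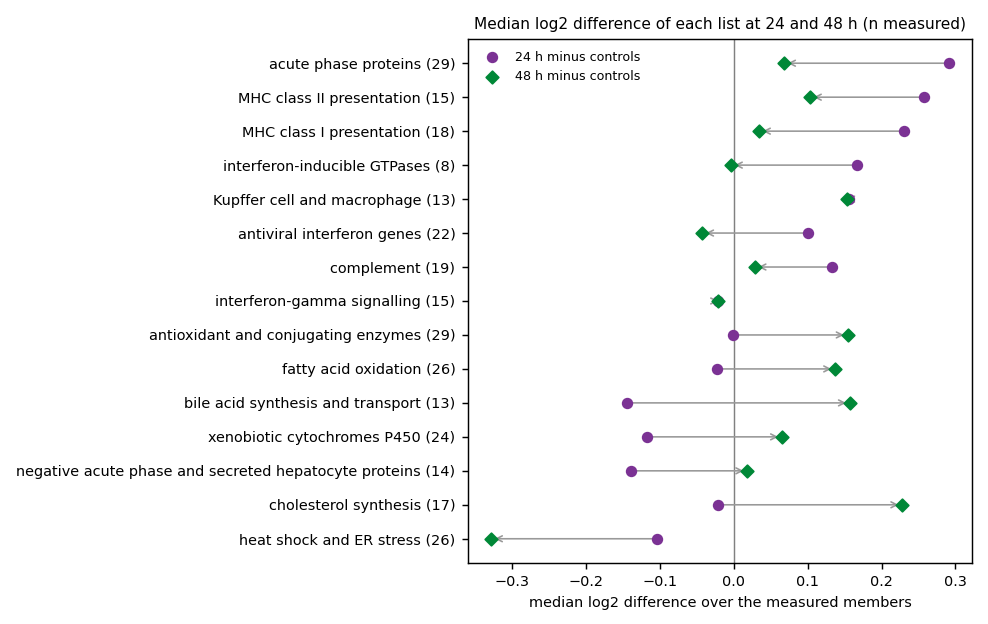
Median log2 difference from the controls at 24 h and at 48 h for 15 lists, joined by a line per list. Acute phase and MHC lists move towards 0, the P450, bile acid, fatty acid oxidation and antioxidant lists move up, and the heat shock and ER stress list moves down.

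Whether the 24 and 48 h response differed between genotypes was tested by the product of genotype and response. Of 8251 genes, 0 were called (0%) in limma, the smallest adjusted p was 0.320, and 394 had an unadjusted p under 0.05; 1 gene was called when PBS 4 h arrays were the only controls. With 1 array per genotype and condition, a p above the threshold does not show that the genotypes responded alike.

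The values nearest to a call came from protein folding and sterol synthesis. Creld2, an ER stress protein, read 7.17 and 7.57 in the IFNg-/- controls and 6.08 and 5.75 at 24 and 48 h. In SOCS1-/-IFNg-/- it read 6.43 and 6.13 in the controls and 6.92 and 6.54 at 24 and 48 h. It was lower after interferon in the first genotype and higher in the second, and the difference of the responses was 1.90 ± 0.26 (limma adjusted p = 0.320). The sterol enzyme gene Nsdhl was at -1.30 ± 0.19 (adjusted p = 0.320). Both were named after their values were seen.

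Of 17 measured cholesterol synthesis genes, 17 were above their own controls in IFNg-/- at 24 and 48 h (median 0.52), whereas in SOCS1-/-IFNg-/- 16 were below (median -0.23). The difference of the responses had a median of -0.75, against 0.03 for all genes, and 0 were called. The mean of the list was 7.92 untreated and 7.41 at PBS 4 h in the IFNg-/- controls, and 8.17 and 8.05 in those of SOCS1-/-IFNg-/-. At 24 and 48 h the IFNg-/- arrays held 8.00 and 8.36, and those of SOCS1-/-IFNg-/- held 7.75 and 7.94. The lowest of the 8 arrays was thus the IFNg-/- PBS 4 h control, where 0 of 17 genes were above untreated, so each genotype's own controls weigh in this value. Against the untreated arrays alone, 17 of 17 were above in IFNg-/- and 15 of 17 below in SOCS1-/-IFNg-/-. The PBS 12 h arrays held 8.42 and 8.19, above the interferon arrays of the same genotype. The cause of the split was not tested.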

How the data were processed

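RNA from 22 mouse liver samples was measured on 1 Affymetrix 3-prime array each, and 8 arrays entered the fits. The deposited values are log2 summaries per probe set that the authors made; affy is the tool listed, per the submitters' processing notes. How the arrays were normalized is not given in the sources used here. Values from 1.73 to 13.5, with array medians of 5.64 to 5.71, put them on a log2 scale. The number of arrays limits the precision.

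Of 12488 probe sets, 66 control sets, 396 with several symbols and 1193 with none were left out, and the probe set with the highest mean stood for a gene (8251 genes). No dim-gene filter was used in the tests.

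Genes were tested by lmFit and eBayes of limma 3.58.1 (R 4.3.3), and p-values were adjusted by Benjamini-Hochberg over all genes. Models were genotype plus response (5 residual degrees of freedom), genotype plus control, 24 h or 48 h (4), and the product of genotype and response (4). On simulated data with 200 changed genes, 97.5 to 100% were recovered at a log2 change of 1, and 4.31 to 9.91% of calls were false over changes of 1 and 2. The simulated noise was independent between arrays, with the spread of the model that fits 24 and 48 h apart. No shift between those times was added in the comparison of both times. The rates therefore do not bound what the real arrays could miss, since Cxcl9, at 3.29 over both times, was not called.

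Genes named were Socs1 and Ifng, up to 15 higher and 10 lower calls per comparison, the 10 largest separated genes each way where fewer than 10 passed, up to 5 members of each list described, and a fixed set of interferon, acute phase and clock genes. Creld2, Nsdhl, and Cd52, Tmem176a, Lsr and Il18bp were added after their values were seen. So were some list members named for their role or direction (Clec4f, Adgre1, Lyz2, Fcgr1, Ctss, Tapbp, H2-K1, H2-D1, Dnajc3, Hsp90b1, H2-Eb1, Lgmn, Calr). Members and lists were chosen with earlier results of these data known. Of 806 list genes 593 were measured. There were 19 alternatives (11 settings and 8 arrays left out in turn).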

Additional observations from a re-analysis of the deposited data

Results flagged for a closer look

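Mpeg1 read 7.42 on the SOCS1-/-IFNg-/- untreated array, while the other 3 controls lay between 7.11 and 7.15. The gap is 0.853 of the range, above Dixon's 95% critical value for 4 samples. This was 1 of 44 such checks over 22 genes, and chance alone gives about 1 in 20.

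Cxcl9 and Psmb8 carried signal on arrays that entered no fit. Cxcl9 read 7.76 on the IFNg-/- PBS 12 h array and 8.31 on the SOCS1-/-IFNg-/- PBS 12 h array, against 4.16 to 4.46 in the 4 controls. Psmb8 read 7.82 and 8.07 on the same arrays, against 6.16 to 6.77 in the controls. The cause was not tested.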

How the results depend on the processing

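Called genes numbered 2 over both times, 25 at 24 h, 1 at 48 h, 11 from 24 to 48 h and 0 for the genotype difference. Where they moved by over 1.5 times, they were 14 over both times, 0 at 48 h and 5 for the change with the spread from all 22 arrays. With PBS 12 h arrays added, 24 h gave 10 and the change between times 4. With untreated controls only, both times gave 0, 48 h gave 6 and the change 20. With PBS 4 h controls only the counts, in the same order, were 6, 47, 26 and 21, and 1 for the genotype difference. Without the genotype term they were 1 and 15 for both times and 24 h, and this setting could not be run for the genotype difference. Trend and robust eBayes gave 5 at 48 h. Array weights gave 19, 54, 10 and 25. Quantile normalization gave 0 over both times and 6 for the change, and median centring gave 1 over both times, 16 at 24 h and 2 for the change. Leaving out 1 array gave 0 to 5, 5 to 31, 1 to 6, 2 to 16 and 0 to 0. The cause was not tested.

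Over both times, 17 values of uncalled genes changed sign. Igtp was -0.14 and Psmb9 -0.16 with PBS 12 h added. Irf1 was 0.31 and Dbp 0.000392 with untreated controls. B2m was -0.015, Orm1 -0.10, Mt1 -0.58 and Mt2 -0.86 with PBS 4 h controls. Irf1 was 0.12 with weights. Leaving out 1 array gave -0.15 to 0.12 for Irf1, -0.39 to 1.08 for Mt2, -0.37 to 0.13 for Hamp and -0.004818 to 0.13 for Socs1, where Socs1 and Hamp changed sign without the SOCS1-/-IFNg-/- 24 h array. With PBS 4 h controls, added after seeing the data, the MHC class I median at 48 h was 0.09. Replicate numbers pair no arrays here, since each group has 1 array; genotype is a term of the model, so the 24 to 48 h change is taken within genotype.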
